A study of Homo sapiens with 9 samples.

Results

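A set of 10 long non-coding RNA (lncRNA) genes was followed in HepG2, a human hepatocellular carcinoma cell line: NEAT1, MALAT1, GAS5, SNHG1, SNHG12, ZFAS1, H19, MIR22HG, PVT1 and CYTOR. They were taken by symbol, and all 10 were found among the 62703 gene identifiers listed. HepG2 cells were either left untreated (control; the labels give no time) or treated for 72 h with 20 µM or 30 µM eliglustat, which blocks glucosylceramide synthase. RNA sequencing gave 3 libraries in each of the 3 groups, all from the same line with no genetic change named in the labels. A lower dose in the series text was not analysed here, and the text names a later incubation that the labels do not tie to these libraries.

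A lncRNA is a long transcript without a known protein product. NEAT1 and MALAT1 stay in the nucleus: the long form of NEAT1 is the scaffold of paraspeckles, nuclear bodies that hold RNA-binding proteins, and MALAT1 collects in nuclear speckles, which store splicing factors. GAS5, SNHG1, SNHG12 and ZFAS1 are host genes, whose introns hold small nucleolar RNAs (snoRNAs) that guide chemical modification of ribosomal RNA. Their spliced transcripts reach the cytoplasm, are kept low by nonsense-mediated decay, and several begin with a 5′ terminal oligopyrimidine (5′TOP) run, the start that is known from mRNAs of ribosomal proteins. MIR22HG and H19 carry microRNAs, PVT1 lies beside the MYC oncogene, and CYTOR is a cytoplasmic lncRNA linked to growth of several tumours.

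Annotated transcript starts of the hosts and the 3′ ends of the nuclear lncRNAs are shown because each is known for its sequence. They were read from GENCODE 29 (GRCh38). The first 30 bases of the host transcripts follow at the start shared by the most transcripts, with the leading run of C and T that begins with C in capitals; for ZFAS1 a second start is given as well.
GAS5 (chr1:173867960-173867989, minus strand): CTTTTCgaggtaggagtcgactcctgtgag
SNHG12 (chr1:28581844-28581873, minus strand): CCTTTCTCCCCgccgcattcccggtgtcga
SNHG1 (chr11:62855459-62855488, minus strand): CTTattgggctcctgtctgcaggatttacg
ZFAS1 (chr20:49278178-49278207, plus strand): Cgggggcccagggtggagagcacgagggcc
ZFAS1, second start (chr20:49278642-49278671, plus strand): CTTTCgcgtctgcggtgcccggagtgtggt
At the start shared by the most transcripts, GAS5 and SNHG12 had a run of at least 4 such bases, SNHG1 a run of 3 and ZFAS1 a run of 1. Of 19831 protein-coding genes, 4.29% had a run of at least 4 at that start, and of 15765 lncRNA genes 3.89%. The second start of ZFAS1, used by 2 of its 10 transcripts, had a run of 5 and is not part of these shares. This second start is also the RefSeq start of ZFAS1, so the run of 1 is not read as a lack of 5′TOP. The SNHG1 start shown lies downstream of SNORD25 (chr11:62855564-62855632, minus strand), a snoRNA inside SNHG1, so it is an internal start. Its run is not read as that of the 5′ end of SNHG1.

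The 3′ ends of MALAT1 and of the long form of NEAT1 are not polyadenylated in the usual way: RNase P cuts them at a tRNA-like RNA, and the end folds into a triple helix of U-rich stretches and an A-rich tail. The last 90 bases before that cut in MALAT1 and the last 90 bases of the longest NEAT1 transcript are shown because both hold the same words of 10 or more bases, which are in capitals, and the tRNA-like RNA of MALAT1 (mascRNA) follows them.
MALAT1 (chr11:65506027-65506116, plus strand): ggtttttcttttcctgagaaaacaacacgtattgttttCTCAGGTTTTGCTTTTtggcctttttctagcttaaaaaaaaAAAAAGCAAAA
NEAT1 (chr11:65445451-65445540, plus strand): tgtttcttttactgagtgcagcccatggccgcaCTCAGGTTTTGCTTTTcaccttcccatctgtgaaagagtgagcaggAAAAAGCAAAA
mascRNA (chr11:65506117-65506173, plus strand): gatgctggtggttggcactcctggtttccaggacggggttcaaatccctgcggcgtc
The shared words lie at the U-rich stretch and at the A-rich tail. The labels give the RNA as polyadenylated, while the library protocol describes removal of ribosomal RNA from total RNA.

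Counts in genes ranged from 21103757 to 26782810 per library, and 17623 genes had enough counts to be tested. Values are CPM, counts over a library total that was multiplied by its TMM factor (a scaling by trimmed means of gene ratios), so CPM and a plain share of counts need not change by the same fold. Changes are log2 ± SE from edgeR's quasi-likelihood test, with p-values adjusted over all of these genes by the Benjamini-Hochberg method. The words rose and fell are kept for an adjusted p under 0.05. Whether each library had its own culture is not in the labels, so the p-values measure only how these libraries spread, in part perhaps for technical reasons. Control 1, 20 µM library 3 and 30 µM library 3 deviated from their group means in the same direction (r of 0.331 to 0.352 over genes), and of the 9 lncRNAs tested, 1 call (MIR22HG at 20 µM) was lost without them. Without them FTX, KCNQ1OT1, TRNAU1AP, SNORD12C and LYZ became called at 20 µM (adjusted p = 3.27e-06, 0.00149, 0.0255, 0.00987 and 0.0123), and TPT1, SMG6 and SLC3A2 were no longer called there (0.0548, 0.137 and 0.112), all of them genes outside the 10. Hepatocyte markers summed to 32874 to 34169 CPM in controls, 37052 to 37487 at 20 µM and 41974 to 42450 at 30 µM, a sum in which APOB is the largest part. Of the 10, all detected, 7 rose and 2 fell at 20 µM and 4 rose and 4 fell at 30 µM (median log2 −0.03), and AFP fell at 30 µM from 1343 to 938 CPM. Summed in the same way, fibroblast markers stayed at or under 0.646 CPM, with 2 of 7 at 0 in every group. Endothelial markers summed to at most 6.34 CPM, and immune markers other than LYZ to at most 2.07 CPM. Of 3 endothelial markers tested, 1 rose and 1 fell at 20 µM, and 1 rose and 2 fell at 30 µM (log2 −1.21 to 2.57). Over all genes tested, 29.5% were higher and 31.3% lower at 30 µM. LYZ, a lysozyme also made outside immune cells, rose from 469 to 655 CPM at 30 µM (log2 0.48, adjusted p = 4.29e-13), and its part in other results was not tested. In bulk RNA, fewer cells of a kind and less RNA per cell cannot be told apart.

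Of the 10 lncRNAs, 9 were tested. At 20 µM 3 rose (NEAT1, MALAT1 and MIR22HG) and 4 fell, the 4 snoRNA hosts. Over all genes tested, 34.2% were called at this dose (17.2% higher, 16.9% lower), and of 2797 lncRNA-type genes 12.2% (8.4% higher, 3.75% lower). At 30 µM 4 rose, the same 3 and CYTOR, and 3 fell (GAS5, SNHG1 and ZFAS1), against 60.8% of all genes called (29.5% higher, 31.3% lower) and 40.3% of lncRNA-type genes (14.4% higher, 25.8% lower). From 20 to 30 µM 6 rose and 1 fell, against 57% of all genes (28% higher, 28.9% lower) and 35.8% of lncRNA-type genes (10.2% higher, 25.6% lower). Libraries of the groups did not overlap for 8 of 9 lncRNAs at 20 µM, against 44.5% of all genes and 25.1% of lncRNA-type genes. At 30 µM it was 8 of 9 against 65% and 47.3%, and between the doses 7 of 9 against 61.1% and 43.5%. Both comparisons with control share the control libraries, so their values are given side by side only.

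**Figure D1:**
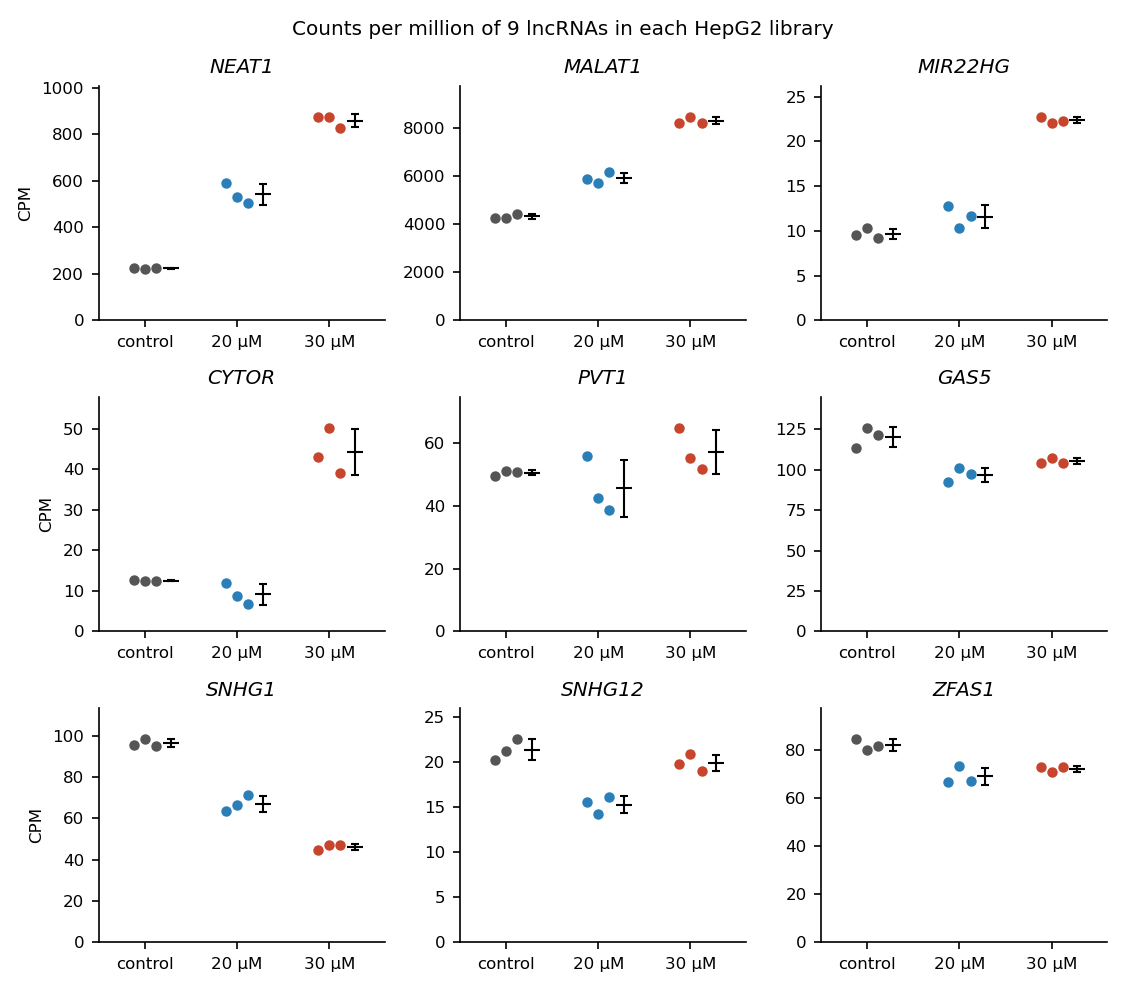
CPM (y axis, from 0) of 9 lncRNAs in control, 20 µM and 30 µM libraries; each point is 1 library, and the bar beside it is the mean ± SD (n = 3). NEAT1 and MALAT1 step up at each dose, SNHG1 steps down at each dose, MIR22HG and CYTOR are far higher at 30 µM, and GAS5, SNHG12 and ZFAS1 are lowest at 20 µM by their means.

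NEAT1 (ENSG00000245532, chr11:65422774-65445540, plus strand, lincRNA) was at 224, 222 and 225 CPM in the 3 controls, at 592, 529 and 506 CPM at 20 µM and at 874, 876 and 827 CPM at 30 µM. The groups were wholly apart, and every 30 µM library lay above every 20 µM library. NEAT1 rose 2.43-fold at 20 µM (log2 1.28 ± 0.045, adjusted p = 5.14e-14) and 3.84-fold at 30 µM (log2 1.94 ± 0.0456, adjusted p = 5.16e-18). Between the doses it rose 1.58-fold (log2 0.66 ± 0.0438, adjusted p = 1.14e-10).

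MALAT1 (ENSG00000251562, chr11:65497688-65506516, plus strand, lincRNA), which lies on the same arm of chromosome 11 downstream of NEAT1, held 4267, 4258 and 4425 CPM in controls, 5891, 5708 and 6155 CPM at 20 µM and 8221, 8468 and 8205 CPM at 30 µM. Again no library of one group reached another group. MALAT1 rose 1.37-fold at 20 µM (log2 0.46 ± 0.03, adjusted p = 7.04e-14) and 1.92-fold at 30 µM (log2 0.94 ± 0.0302, adjusted p = 1.72e-23). It held 0.454 ± 0.0125% of counts in genes in controls, 0.616 ± 0.0216% with 20 µM and 0.755 ± 0.0152% with 30 µM (SD, n = 3). As a plain share this was 1.66-fold at 30 µM, where the TMM-scaled value was 1.92-fold.

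MALAT1 held 86.6% to 88.3% of the counts of the 10 lncRNAs. Together the 10 made up 27.2 ± 0.43% of the counts of lncRNA-type genes in controls, 32.6 ± 1.5% with 20 µM and 41.9 ± 0.452% with 30 µM (SD, n = 3). The share of all counts that fell in lncRNA-type genes was 1.91 ± 0.0178%, 2.16 ± 0.0919% and 2.07 ± 0.0531% in the same order. The median log2 change of lncRNA-type genes at 30 µM was −0.19, against −0.04 over all genes tested.

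A protein-coding neighbour of NEAT1 also rose at 30 µM. FRMD8, 9249 bases before NEAT1, went from 30.0 ± 1.25 CPM in controls to 41.7 ± 0.868 at 30 µM (SD, n = 3; log2 0.47 ± 0.0565, adjusted p = 6.72e-09). FRMD8 had a log2 change of 0.02 ± 0.0576 at 20 µM (adjusted p = 0.851), where NEAT1 had already risen.

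**Figure D2:**
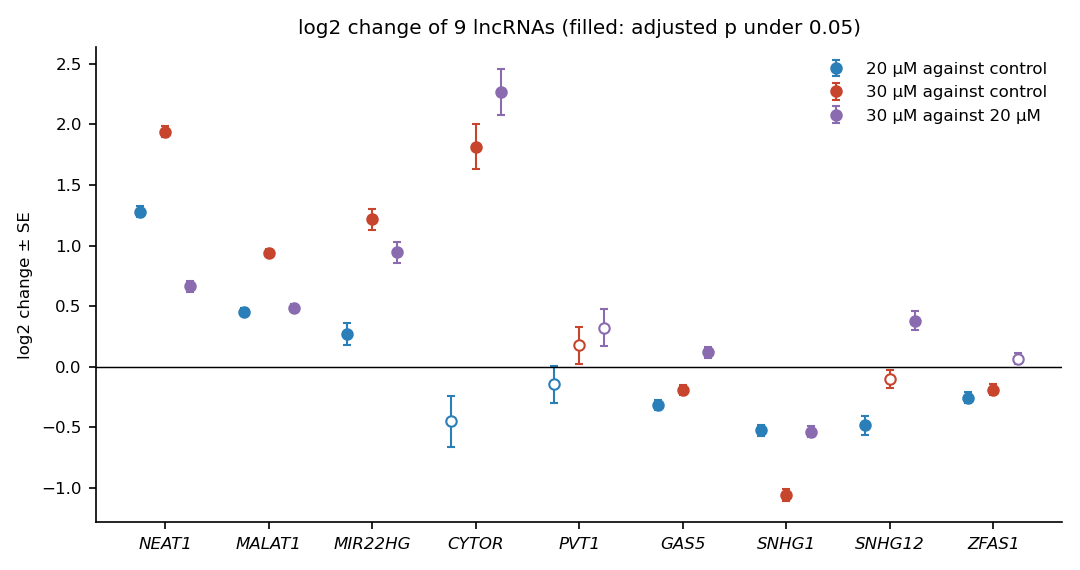
log2 change ± SE (y axis) of 9 lncRNAs in the 3 comparisons; filled points have an adjusted p under 0.05 in edgeR's quasi-likelihood test, open points do not. The points of NEAT1 and MALAT1 are above 0 in all 3 comparisons, those of SNHG1 below 0 in all 3, and those of GAS5, SNHG12 and ZFAS1 are below 0 against control and above 0 between the doses (GAS5 and ZFAS1 change sign there with scaling by library size alone).

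Of the snoRNA hosts, SNHG1 (ENSG00000255717, chr11:62851988-62855914, minus strand), host of SNORD22 and SNORD25 to SNORD31, changed most. It was at 95.5, 98.6 and 94.8 CPM in controls, at 63.4, 66.2 and 71.3 CPM at 20 µM and at 44.6, 47.0 and 47.2 CPM at 30 µM, with no overlap between any 2 groups. SNHG1 fell 1.44-fold at 20 µM (log2 −0.52 ± 0.0463, adjusted p = 5.68e-11) and 2.08-fold at 30 µM (log2 −1.06 ± 0.0479, adjusted p = 2.23e-19). From 20 to 30 µM it fell by a further 0.53 on the log2 scale (SE 0.0488, adjusted p = 2.52e-11). SLC3A2, the heavy chain of amino acid transporters, starts 188 bases away on the other strand and rose from 225 ± 0.821 CPM to 289 ± 4.38 CPM at 30 µM (SD, n = 3; log2 0.36 ± 0.0354, adjusted p = 9.68e-11).

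GAS5 (ENSG00000234741, chr1:173863900-173868882, minus strand), named for its rise in growth-arrested cells, was at 113, 126 and 121 CPM in controls, at 92.2, 101 and 97.4 CPM at 20 µM and at 104, 107 and 104 CPM at 30 µM. Every treated library lay below every control, and the 30 µM libraries lay between the other groups. GAS5 fell 1.24-fold at 20 µM (log2 −0.31 ± 0.0431, adjusted p = 4.52e-07) and 1.14-fold at 30 µM (log2 −0.19 ± 0.043, adjusted p = 0.000229). Its difference between the doses (log2 0.12 ± 0.0435, adjusted p = 0.0185) was lost without 20 µM library 1 (adjusted p = 0.142), without 30 µM library 2 (adjusted p = 0.0792) and with upper-quartile scaling (adjusted p = 0.407), and it turned to −0.073 with library size alone.

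SNHG12 (ENSG00000197989, chr1:28578538-28583132, minus strand) was at 20.3, 21.2 and 22.6 CPM in controls, at 15.6, 14.2 and 16.1 CPM at 20 µM and at 19.8, 20.9 and 19 CPM at 30 µM. The 20 µM libraries stood alone below the rest, while the 30 µM libraries overlapped the controls. SNHG12 fell 1.40-fold at 20 µM (log2 −0.48 ± 0.0765, adjusted p = 5.19e-06) and rose from 20 to 30 µM (log2 0.38 ± 0.0776, adjusted p = 8.49e-05). Its 30 µM value against control was −0.10 ± 0.0751 (adjusted p = 0.247), and −0.31 with library size alone (adjusted p = 0.000573).

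ZFAS1 (ENSG00000177410, chr20:49278178-49295738, plus strand), host of SNORD12, SNORD12B and SNORD12C, was at 84.9, 80.0 and 82.0 CPM in controls, at 66.8, 73.3 and 67.1 CPM at 20 µM and at 73.0, 70.9 and 73.0 CPM at 30 µM. All treated libraries lay below all controls, and the treated groups overlapped each other. ZFAS1 fell 1.19-fold at 20 µM (log2 −0.25 ± 0.0452, adjusted p = 3.06e-05) and 1.14-fold at 30 µM (log2 −0.19 ± 0.0453, adjusted p = 0.000593). Between the doses the change was 0.07 ± 0.0458 (adjusted p = 0.224), which was −0.13 with library size alone (adjusted p = 0.0172).

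The snoRNAs listed inside SNHG1, SNHG12 and ZFAS1 gave few counts, and no small RNA gene was listed inside GAS5. Of 23 small RNA genes inside the lncRNAs (snoRNAs and microRNAs), 19 had 0 counts in all 9 libraries. As for H19 below, a listed 0 is not read as a level. The exception with the most counts was SNORD12C in ZFAS1 (chr20:49278940-49279028, plus strand), with 44 to 117 counts, shown here with an exact C box TGATGA and the D box CTGA in capitals, the ends by which box C/D snoRNAs are recognised.
SNORD12C: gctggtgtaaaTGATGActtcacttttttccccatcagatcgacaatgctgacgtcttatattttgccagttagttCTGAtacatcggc
SNORD12C was at 2.33, 3.07 and 4.2 CPM in controls, at 1.77, 2.51 and 2.61 CPM at 20 µM and at 2.08, 1.81 and 2.6 CPM at 30 µM, and control values overlapped treated ones. It passed the test at 30 µM (log2 −0.56 ± 0.222, adjusted p = 0.0289), but not without control 3 (log2 −0.31, adjusted p = 0.29) or by DESeq2 (adjusted p = 0.0682).

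Some host loci overlap other genes, and no source used here states the strand setting of the counting, so reads there could be shared. ZNFX1, which overlaps the start of ZFAS1 on the other strand, had mean levels of 61.4 ± 3.17 CPM without drug, 50.7 ± 2.08 CPM with 20 µM and 84.7 ± 2.09 CPM with 30 µM (SD, n = 3). It fell at 20 µM (log2 −0.27 ± 0.0488, adjusted p = 2.85e-05) and rose at 30 µM (log2 0.46 ± 0.0475, adjusted p = 2.48e-10), the latter opposite to ZFAS1. ZBTB37, over GAS5, was at 38.8 ± 2.64, 38.2 ± 1.98 and 37.0 ± 0.478 CPM (SD, n = 3; adjusted p = 0.857 and 0.348). TRNAU1AP overlaps the 3′ end of SNHG12 on the other strand. It was at 11.9 ± 1.18, 10.0 ± 0.4 and 10.1 ± 1.27 CPM (SD, n = 3). Its log2 change was −0.25 ± 0.103 at 20 µM (adjusted p = 0.0608) and −0.25 ± 0.104 at 30 µM (0.0394). The 30 µM call was lost in 4 of 9 fits that left out 1 library. The part of shared reads was not tested.

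Set against each other, the 2 nuclear lncRNAs summed to 4541 ± 94.6 CPM in controls, 6460 ± 213 with 20 µM and 9157 ± 165 with 30 µM, and the 4 hosts to 320.2 ± 5.92, 248 ± 8.87 and 244 ± 2.25 CPM (SD, n = 3). The log2 ratio of the sums was 3.83 ± 0.0394 in controls, 4.70 ± 0.0787 with 20 µM and 5.23 ± 0.0156 with 30 µM (SD, n = 3). The nuclear sum was thus 14.2, 26.0 and 37.6 times the host sum. It differed from control by 0.88 ± 0.0508 at 20 µM and by 1.41 ± 0.0245 at 30 µM, and between the doses by 0.53 ± 0.0463 (log2 ± SE). The 3 groups did not overlap. The genes of both sums were chosen with earlier results of these data known, so no p-value is given for these differences and they are descriptive only. The ratio does not depend on the scaling of the libraries. MALAT1 makes up most of the nuclear sum, and with NEAT1 alone over the hosts the log2 ratio was −0.52 ± 0.0343 in controls, 1.13 ± 0.166 with 20 µM and 1.82 ± 0.0451 with 30 µM (SD, n = 3). Its differences were 1.64 ± 0.0978 at 20 µM and 2.34 ± 0.0327 at 30 µM against control, and 0.69 ± 0.0993 between the doses (log2 ± SE).

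**Figure D3:**
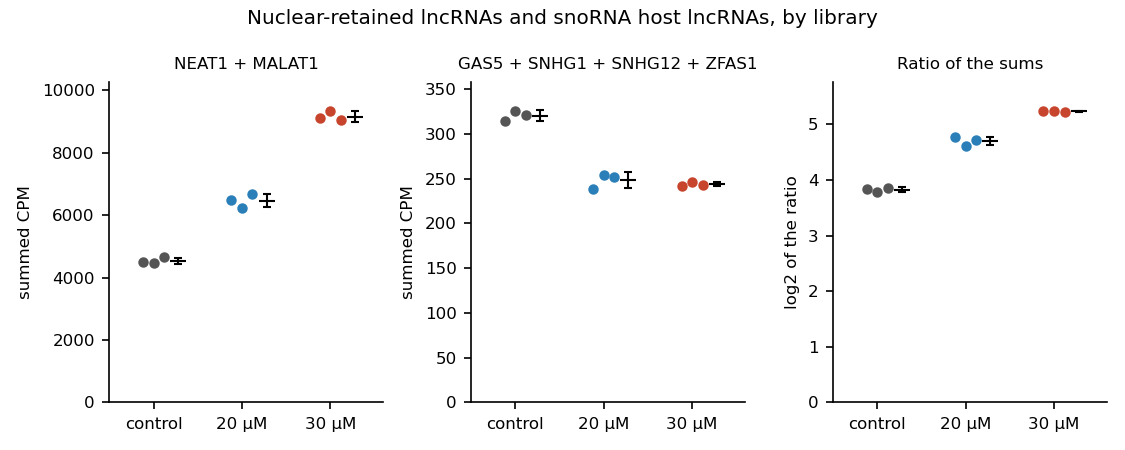
Summed CPM of NEAT1 and MALAT1 (left), summed CPM of GAS5, SNHG1, SNHG12 and ZFAS1 (middle) and the log2 of their ratio (right) in each library, with mean ± SD (n = 3) beside the points. The nuclear sum grows from 4541 to 9157 CPM by group means, the host sum drops at 20 µM and is about level from there, and the log2 ratio goes from 3.83 to 5.23.

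MIR22HG (ENSG00000186594, chr17:1711493-1717174, minus strand) is the host transcript of miR-22, a microRNA that is abundant in liver. Both arms from RefSeq (GRCh38.p14) are given with their seeds, bases 2 to 8, in capitals, since the host is the only part of the locus with counts.
hsa-miR-22-3p: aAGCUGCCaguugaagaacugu
hsa-miR-22-5p: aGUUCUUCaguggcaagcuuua
MIR22HG was at 9.50, 10.3 and 9.16 CPM in controls, at 12.8, 10.3 and 11.7 CPM at 20 µM and at 22.8, 22.1 and 22.3 CPM at 30 µM. The 30 µM libraries were well above the others, while the nearest control and 20 µM libraries were both at 10.3 CPM.

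MIR22HG rose 2.32-fold at 30 µM (log2 1.22 ± 0.0883, adjusted p = 6.1e-14) and 1.92-fold from 20 to 30 µM (log2 0.94 ± 0.0868, adjusted p = 2.86e-11). At 20 µM the change was small (log2 0.27 ± 0.0925, adjusted p = 0.0207), and it did not pass without control 1 (adjusted p = 0.0568), control 3 (0.0936), 20 µM library 1 (0.156), 20 µM library 3 (0.0518) or the whole set of control 1 with library 3 of either dose (0.0946). The gene of the miR-22 hairpin itself had 0 counts in all 9 libraries. WDR81, which overlaps MIR22HG on the other strand, rose as well, from 79.9 ± 2.35 CPM to 102 ± 5.46 with 20 µM and 94.3 ± 1.63 with 30 µM (SD, n = 3; adjusted p = 6.19e-08 and 1.5e-05). WDR81 was higher at 20 µM than at 30 µM by its means, unlike MIR22HG, and its 30 µM call was lost with library size alone (log2 0.03, adjusted p = 0.565).

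CYTOR (ENSG00000222041, chr2:87454781-87636740, plus strand, lincRNA) was at 12.7, 12.5 and 12.3 CPM in controls, at 11.9, 8.77 and 6.65 CPM at 20 µM and at 43.1, 50.2 and 39.0 CPM at 30 µM. All 20 µM libraries lay below all controls and all 30 µM libraries far above them. CYTOR rose 3.52-fold at 30 µM (log2 1.82 ± 0.185, adjusted p = 9.16e-05) and 4.82-fold from 20 to 30 µM (log2 2.27 ± 0.193, adjusted p = 3.66e-05). At 20 µM the log2 value was −0.45 ± 0.211 (adjusted p = 0.159). It passed without 20 µM library 1 (log2 −0.70, adjusted p = 0.000199), and with limma voom (adjusted p = 0.0315).

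CYTOR has a near-identical copy on the other arm of chromosome 2, MIR4435-2HG (chr2:111036776-111523376, minus strand). Reads that aligned to several places were counted in no gene, so the level of each is uncertain. MIR4435-2HG was at 41.4, 39.7 and 41.1 CPM in controls, at 32.1, 27.9 and 22.9 CPM at 20 µM and at 88.5, 81.8 and 76.1 CPM at 30 µM, the same order of groups as CYTOR. It fell at 20 µM (log2 −0.56 ± 0.109, adjusted p = 0.00348) and rose at 30 µM (log2 1.01 ± 0.102, adjusted p = 1.68e-05).

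The CYTOR promoter is shown because its lncRNA had the largest step between the doses of the 9 tested. The 300 bases run from 250 before to 50 after the RefSeq start (GRCh38.p14, chr2:87455177-87455476, plus strand), with matches to the AP-1 motif TGANTCA (either strand) in capitals.
CYTOR promoter: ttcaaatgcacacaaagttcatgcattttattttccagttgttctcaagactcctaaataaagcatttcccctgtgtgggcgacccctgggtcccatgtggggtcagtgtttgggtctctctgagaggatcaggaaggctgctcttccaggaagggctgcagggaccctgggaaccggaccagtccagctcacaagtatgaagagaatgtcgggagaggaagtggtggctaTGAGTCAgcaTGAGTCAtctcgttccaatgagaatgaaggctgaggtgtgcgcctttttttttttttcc
The first match begins 19 bases and the second 9 bases before the start. Of 35116 promoters of this length, 7.71% held at least 1 match and 0.515% held 2 or more. The MIR4435-2HG promoter held 1, and those of GAS5, SNHG1, SNHG12, ZFAS1, MALAT1, MIR22HG and H19 held 0. Neither the CRE motif TGACGTCA (in 1.85% of promoters) nor the E-box CACGTG (in 7.26%) was found in any of these 9 genes' promoters, both strands searched. A match describes letters only and not binding.

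PVT1 (ENSG00000249859, chr8:127794533-128101253, plus strand) was at 49.5, 51.0 and 50.8 CPM in controls, at 55.7, 42.4 and 38.5 CPM at 20 µM and at 64.8, 55.0 and 51.5 CPM at 30 µM. The treated libraries spread widely, and library 1 was highest at each dose. No comparison passed the test: the log2 value was −0.15 ± 0.152 at 20 µM (adjusted p = 0.545), 0.18 ± 0.151 at 30 µM (adjusted p = 0.357) and 0.32 ± 0.152 between the doses (adjusted p = 0.12). Without 20 µM library 1 the values were −0.32 (adjusted p = 0.00394), 0.17 (0.0343) and 0.49 (3.14e-05).

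MYC, 53099 bases before PVT1, moved more evenly. It went from 318 ± 16.3 CPM to 359 ± 6.64 with 20 µM and 507 ± 15.1 with 30 µM (SD, n = 3; log2 0.17 ± 0.0354 and 0.67 ± 0.0354, adjusted p = 0.000172 and 1.32e-17). Library 1 at 20 µM, which was highest of its group for NEAT1, PVT1, CYTOR and MIR22HG, also had the largest share of records in no annotated gene, 26.4%, against 20.1% to 24.1% in the other 8 libraries. The part of that share in these results was not tested.

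H19 (ENSG00000130600, chr11:1995176-2001470, minus strand), an imprinted lncRNA of fetal liver, was listed at 0 counts in all 9 libraries and was not tested. EEF1G, a translation factor that all cells use, was also listed at 0 in all 9, and SNHG15, another snoRNA host, had 0 to 4 counts. A listed 0 is therefore not read as a level here. IGF2, the imprinted neighbour of H19, was at 2941, 2744 and 2730 CPM in controls and at 1987, 2127 and 2434 CPM at 30 µM (log2 −0.36 ± 0.0822, adjusted p = 0.00771).

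Per kilobase of annotated exons, MALAT1 stood far above the rest. In controls the order was MALAT1 at 489 ± 10.6 CPM per kb, ZFAS1 at 36.7 ± 1.09, GAS5 at 33.1 ± 1.76, SNHG1 at 25.6 ± 0.53, NEAT1 at 9.82 ± 0.0625, PVT1 at 9.18 ± 0.145, SNHG12 at 5.01 ± 0.275, MIR22HG at 3.23 ± 0.191 and CYTOR at 0.707 ± 0.0116 (SD, n = 3). The intervals of mean ± SD of neighbours in this order did not overlap in controls. At 20 µM MALAT1 was at 670.3 ± 25.4 CPM per kb, ZFAS1 at 30.8 ± 1.65, GAS5 at 26.6 ± 1.19, NEAT1 at 23.8 ± 1.96, SNHG1 at 17.8 ± 1.07, PVT1 at 8.29 ± 1.64, MIR22HG at 3.89 ± 0.423, SNHG12 at 3.58 ± 0.232 and CYTOR at 0.515 ± 0.15 (SD, n = 3), and the intervals of GAS5 and NEAT1, and of MIR22HG and SNHG12, overlapped. At 30 µM MALAT1 was at 940 ± 16.7 CPM per kb and NEAT1, now next, at 37.7 ± 1.21, ahead of ZFAS1 at 32.2 ± 0.546 and GAS5 at 29 ± 0.518, while SNHG1 was at 12.3 ± 0.386, PVT1 at 10.4 ± 1.26, MIR22HG at 7.5 ± 0.117, SNHG12 at 4.67 ± 0.216 and CYTOR at 2.49 ± 0.321 (SD, n = 3), with no overlap of neighbours. The order below MALAT1 depends on the length used: with the longest transcript ZFAS1 reached 69.4 and GAS5 63.2 CPM per kb over the 9 libraries, and NEAT1 23.8. The NEAT1 count joins all its forms, so its place also depends on their mix, and its rise cannot be assigned to the long form. By mean CPM over all 9 libraries, among 7921 lncRNA-type genes with counts, MALAT1 ranked 1, NEAT1 4, CYTOR 83, SNHG12 101 and MIR22HG 137.

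The genes most like each lncRNA over the 9 libraries were found by Pearson's r of log2 CPM among 10867 genes; those without a symbol are left out below. For NEAT1 they were SOS1, TBX3 and CYLD (r of 0.996 to 0.995), for MALAT1 CPT1A, BTG1 and SERINC3 (0.998 to 0.997), for SNHG1 SKA3, SEPHS1 and RBFA (0.998 to 0.997) and for MIR22HG RIPK1 and RIOK3 (0.996 and 0.995). For GAS5 they were EIF4H, SET and PRMT5 (0.976 to 0.967), for SNHG12 ABCE1, NAA15 and MSL1 (0.993 to 0.985), for ZFAS1 ELAVL1, GTF3C4 and PFN2 (0.978 to 0.977), for CYTOR TLK1 and NCOA3 (0.995 and 0.991), and for PVT1 MDM4 and GABPA (0.943 and 0.917). The libraries fall into 3 groups, so these values describe shared group differences. Between the lncRNAs themselves r was 0.97 for NEAT1 with MALAT1 and −0.99 for MALAT1 with SNHG1.

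Among the other snoRNA host lncRNAs more fell than rose. Of 25 listed, 23 were tested: 2 rose and 11 fell at 20 µM, and 2 rose and 14 fell at 30 µM, with median log2 changes of −0.23 and −0.27 against 0.01 and −0.04 over all genes. For these and the lists that follow, the share of all genes tested was 17.2% higher and 16.9% lower at 20 µM, and 29.5% higher and 31.3% lower at 30 µM. The 4 largest called changes at 30 µM, among those with a mean of at least 5 CPM, were all falls. SNHG26 went from 29.2 to 15.6 CPM (log2 −0.91 ± 0.082, adjusted p = 2.27e-11), SNHG4 from 71.2 to 40.0 (log2 −0.84 ± 0.057, adjusted p = 2.12e-14), SNHG10 from 27.2 to 16.5 (log2 −0.71 ± 0.0779, adjusted p = 1.06e-09) and SNHG5 from 24.5 to 15.3 (log2 −0.68 ± 0.0891, adjusted p = 1.27e-07). From 20 to 30 µM 6 rose and 6 fell, or 0 and 12 with library size alone.

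Of 16 genes for proteins of the snoRNA particles, 0 rose and 13 fell at 20 µM, while 4 rose and 9 fell at 30 µM, with medians of −0.34 and −0.28 (all genes 16.9% lower at 20 µM, 29.5% higher and 31.3% lower at 30 µM). The split at 30 µM was 1 and 11 with library size alone (median −0.49). NOP56, a core protein of box C/D particles, went from 273 to 188 CPM at 30 µM (log2 −0.54 ± 0.0351, adjusted p = 3.22e-15), and RUVBL1, an assembly helicase, fell to 35.6 CPM (log2 −0.49 ± 0.0551, adjusted p = 2e-09). ZNHIT6, another assembly factor, rose from 27.4 to 37.6 CPM (log2 0.45 ± 0.0618, adjusted p = 1.03e-07).

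Genes of cytosolic translation have mRNAs with the 5′TOP start that is seen in GAS5, in SNHG12 and at the second start of ZFAS1. Of 24 tested, 6 rose and 1 fell at 20 µM, and 17 rose and 0 fell at 30 µM, with medians of 0.04 and 0.18 (all genes 17.2% higher at 20 µM and 29.5% at 30 µM), but the split at 30 µM was 5 and 6 with library size alone. EEF2, the elongation factor that moves the ribosome, went from 2377 to 3756 CPM at 30 µM (log2 0.66 ± 0.0294, adjusted p = 1.36e-19), and TPT1 from 1051 to 1432 CPM (log2 0.45 ± 0.0316, adjusted p = 3.52e-14). Of 16 factors of nonsense-mediated decay, 0 rose and 10 fell at 20 µM, and 3 rose and 8 fell at 30 µM (medians −0.16 and −0.08; all genes 16.9% lower at 20 µM, 29.5% higher and 31.3% lower at 30 µM). With library size alone 2 of these factors rose and 13 fell at 30 µM (median −0.29). Among them the kinase SMG1 rose from 456 to 575 CPM at 30 µM (log2 0.33 ± 0.0316, adjusted p = 3.88e-11), and MAGOH of the exon junction complex fell from 21.5 to 14.2 CPM (log2 −0.60 ± 0.0781, adjusted p = 4.52e-08).

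Genes for protein partners of the nuclear lncRNAs were read in the same way, beside 16.9% of all genes lower at 20 µM and 31.3% at 30 µM. Of 14 genes for paraspeckle proteins 0 rose and 13 fell at 20 µM, and 1 rose and 11 fell at 30 µM (medians −0.25 and −0.25). TAF15 fell from 98.6 to 66.0 CPM (log2 −0.58 ± 0.0444, adjusted p = 2.45e-13) and NUDT21, a cleavage factor that sets which NEAT1 form is made, from 69.8 to 48.1 CPM (log2 −0.54 ± 0.0559, adjusted p = 7.65e-10). Of 15 genes for nuclear speckle proteins 0 rose and 13 fell at 20 µM, and 0 rose and 12 fell at 30 µM (medians −0.31 and −0.37), among them the splicing coactivator SRRM1, from 150 to 100 CPM (log2 −0.58 ± 0.0386, adjusted p = 7.08e-15). With library size alone, 14 paraspeckle and 15 speckle genes fell at 30 µM (medians −0.46 and −0.58).

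Other nuclear-retained lncRNAs were split. Of 7 tested, 1 rose and 1 fell at 20 µM, and 4 rose and 3 fell at 30 µM (medians 0.08 and 0.16), or 3 and 3 at 30 µM with library size alone (median −0.05). LINC-PINT rose from 28.6 to 120 CPM at 30 µM (log2 2.07 ± 0.0496, adjusted p = 5.59e-27), while at 20 µM it was at 35.4 CPM (log2 0.31 ± 0.0527, adjusted p = 1.48e-05). FTX, from the X-inactivation centre, rose from 39.8 to 76.0 CPM at 30 µM (log2 0.93 ± 0.156, adjusted p = 0.00185). FTX at 20 µM was at 55.1 CPM (log2 0.47 ± 0.158, adjusted p = 0.0642), which DESeq2 (adjusted p = 0.00683), limma voom (0.00292) and the replicate block (5.21e-06) called. KCNQ1OT1, an imprinted antisense RNA, was highest at 20 µM, at 1778 ± 262 CPM against 1391 ± 74.4 in controls (SD, n = 3; log2 0.35 ± 0.111, adjusted p = 0.0528), with no overlap. That difference was called by DESeq2 (0.00469), limma voom (0.000801), the replicate block (0.000982) and both median-ratio and upper-quartile scaling (0.0458 and 0.0459). KCNQ1OT1 fell at 30 µM from 1391 to 1073 CPM (log2 −0.38 ± 0.111, adjusted p = 0.0253), a call lost without control 1 (adjusted p = 0.079), control 3 (0.0518), 30 µM library 2 (0.0531) or 30 µM library 3 (0.0829).

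**Figure D4:**
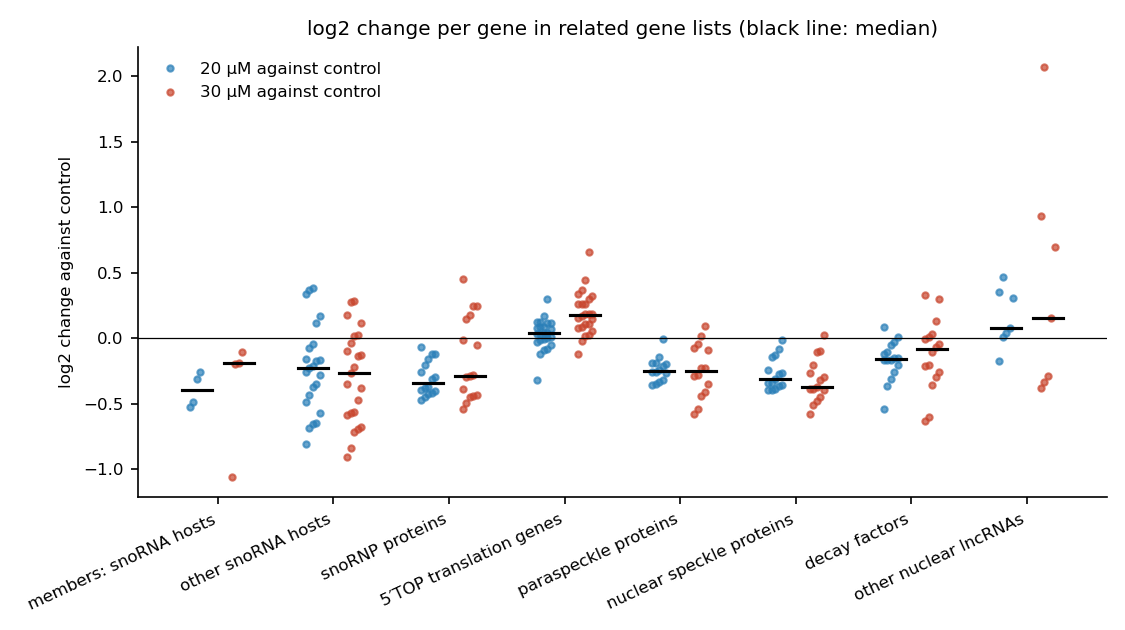
log2 change against control (y axis) of each tested gene in 8 gene lists at 20 µM (blue) and 30 µM (red); the black line is the list's median. The medians of the snoRNA hosts, the snoRNA particle proteins, the paraspeckle and speckle proteins and the decay factors are below 0 at both doses and those of the 5′TOP translation genes above 0; with library size alone the latter is −0.03 at 30 µM.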

How the data were processed

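The authors deposited 1 table of raw read counts per gene for each of 9 libraries, made with FastQC, STAR 2.7.10a and HTSeq on hg38, per the submitters' processing notes. Neither the annotation release nor the strand setting is given in the sources used here. The 5 closing HTSeq totals were kept out of the genes: they held 40.6% to 44.0% of records. Symbols were matched for 62639 of 62703 identifiers, and types, positions and lengths came from GENCODE 29, which held 58264 of them. Promoters of 8 of the 10 genes and the microRNAs came from RefSeq.

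Low genes were dropped with filterByExpr, and TMM set the scaling. The fit used the robust quasi-likelihood test of edgeR 4.0.16 under R 4.3.3, with all 9 libraries and 1 coefficient for each group. The biological coefficient of variation was 0.0529. The SE is the log2 change divided by the square root of F. Alternatives were other scalings, DESeq2 1.42.0, limma 3.58.1 voom, other filters, a replicate block and libraries left out. The test was checked on simulated counts. Replicates differed by more than counting noise (chi-square per gene 2.07 to 7.80), so none was taken as a repeat deposit.

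The 10 genes and all lists were chosen with earlier results of these data known. Named genes are the 10, neighbours and overlapping genes, up to 4 per list by size of change at 30 µM (mean of at least 5 CPM), the 3 most alike per lncRNA, and the 5 largest rises and falls of other lncRNA-type genes without overlap. The text gives a part of these, and some are not reported here. Of 40 other named lncRNAs, 2 symbols were unmatched.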

Additional observations from a re-analysis of the deposited data

Results flagged for a closer look

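The share of records aligned to several places, which no comparison above uses, was higher in the treated groups than in controls. Controls held 12.5 ± 0.199%, libraries with 20 µM held 14.6 ± 1.12% and those with 30 µM held 16.8 ± 2.38% (SD, n = 3), and the control libraries (12.4% to 12.8%) lay below all 20 µM libraries (13.3% to 15.5%) and all 30 µM libraries (14.8% to 19.4%). The two-sided exact permutation test gave p = 0.1 for each dose against control, the smallest value 3 against 3 libraries allow, and p = 0.3 between the doses. Such reads were counted in no gene, and their part in the values of genes with near copies, such as CYTOR and MIR4435-2HG, was not tested.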

How the results depend on the processing

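Both nuclear lncRNAs and SNHG1 kept their direction and their calls in all 3 comparisons under all 20 alternatives. With library size alone, which moves the median of all genes by −0.21 at 30 µM against control and by −0.19 between the doses, 3029 genes were higher and 7690 lower at 30 µM than at 20 µM, and 2 of the 10 lncRNAs were lower. Called genes were then 30.6% and 28.3% higher for those comparisons. Under it GAS5 (−0.0731, adjusted p = 0.15) and ZFAS1 (−0.13, adjusted p = 0.0172) reversed between the doses; the alternative's own shift is of that size. By the longest transcript, levels per kb were 63.2 for GAS5, 25.2 for SNHG1, 9.44 for SNHG12, 69.4 for ZFAS1, 30.0 for PVT1 and 2.92 for CYTOR, as that length is shorter than all exons. Leaving out each library in turn gave 6 to 8 of the lncRNAs past the test at 20 µM, 7 to 8 at 30 µM and 6 to 8 between the doses. The log2 ratio of nuclear to host sums then changed by 0.84 to 0.92, 1.38 to 1.42 and 0.49 to 0.56.

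Same-numbered libraries did not deviate together (4 of 9 pairs over 0.1, r −0.202 to 0.352), so the numbers are not read as pairs. With a replicate block, 5952, 10635 and 9955 genes passed at 20 µM, at 30 µM and between the doses, against 6020, 10707 and 10041 without it. PVT1 was called between the doses under the block (log2 0.33, adjusted p = 0.0141), as it was by DESeq2 (adjusted p = 0.0446) and limma voom (0.00987), and at 30 µM against control with only the groups compared (0.0218). CYTOR at 20 µM was called with no filter (adjusted p = 0.000546), and ZFAS1 between the doses without 20 µM library 2 (0.0463). Of the 9 lncRNAs tested, CYTOR and MIR22HG had the lowest counts in a library, 163 and 228, and SNORD12C had 44; MIR23AHG, MIR222HG, LINC02413, HOXA-AS2 and UICLM went as low as 22, 49, 53, 58 and 62.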

Other observations

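Among other lncRNA-type genes with a mean of at least 5 CPM, a called change and no overlap between the groups, the largest rises included MIR23AHG, host of the miR-23a cluster, from 0.965 ± 0.193 CPM in controls to 2.34 ± 0.722 at 20 µM and 15.3 ± 0.641 at 30 µM (SD, n = 3; edgeR log2 4.00 ± 0.179 at 30 µM, adjusted p = 6.63e-19). LUCAT1 went from 6.90 ± 0.529 to 6.96 ± 0.711 and 37.1 ± 2.8 CPM (SD, n = 3; log2 2.42 ± 0.089, adjusted p = 7.36e-22), with no call at 20 µM (adjusted p = 0.962). MIR222HG, host of miR-221 and miR-222, likewise had 2.58 ± 0.409, 2.74 ± 0.151 and 11.8 ± 0.411 CPM (SD, n = 3; log2 2.19 ± 0.137, adjusted p = 1.41e-15).

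UICLM, among the 5 largest falls at 30 µM, rose at 20 µM, from 13.5 ± 0.571 to 16.5 ± 0.597 CPM (log2 0.29 ± 0.0888, adjusted p = 0.0112), and fell at 30 µM to 3.14 ± 0.238 CPM (SD, n = 3; log2 −2.10 ± 0.109, adjusted p = 8.6e-18). LINC02413 fell at both doses, from 8.46 ± 1.1 to 4.16 ± 0.153 and 2.54 ± 0.201 CPM (SD, n = 3; log2 −1.02 ± 0.137 and −1.74 ± 0.147, adjusted p = 2.67e-07 and 2.79e-12).

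Of 22 tested lncRNAs on a list of other named ones, 8 rose and 4 fell at 20 µM, and 8 rose and 7 fell at 30 µM (8 and 10 with library size alone; all genes 17.2% higher and 16.9% lower at 20 µM, 29.5% and 31.3% at 30 µM), with median log2 changes of 0.13 and −0.08. LINC00963 rose at both doses, from 20.9 to 31.9 and 57.1 CPM (log2 0.61 ± 0.0625 and 1.45 ± 0.0605, adjusted p = 1.35e-09 and 2.2e-20). HOXA-AS2 fell at 30 µM from 8.40 to 3.05 CPM (log2 −1.45 ± 0.138, adjusted p = 4.17e-11).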
